A study of Mus musculus with 6 samples.

Results

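Guanylate-binding proteins (GBPs) and immunity-related GTPases (IRGs) are the interferon-inducible GTPases with which mouse cells attack pathogens that live inside vacuoles. The 10 genes described here were Gbp2, Gbp2b, Gbp3, Gbp4, Gbp7, Igtp, Irgm1, Irgm2, Iigp1 and Ifi47. They were chosen by name, with earlier results of these data known, from 12942 genes in a table of RNA sequencing values. All 10 were in the table, and all 10 passed the filter on low values. The libraries came from invariant natural killer T cells of mouse liver, which had been sorted by CD1d tetramer binding and YFP fluorescence and are labelled iNKT1 cells. The cKOHet group carried Tbx21Cre, Rosa26-YFP, floxed Ets1 on both alleles and a floxed Tbx21 allele beside an unfloxed one. The control group carried Tbx21Cre and Rosa26-YFP alone, so that every animal had the Cre and the reporter. Each group had 3 libraries, numbered 1, 2 and 4. Sorting on YFP kept only cells in which the Cre had been active. Neither the ages of the mice nor how many mice gave each library is stated. The comparison addresses what loss of the transcription factor Ets1, together with a reduced dose of the T-bet gene Tbx21, does to these cells.

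GBPs are large GTPases that assemble on pathogen membranes, and several carry a lipid anchor at their end. The IRGs fall into regulators, Irgm1, Irgm2 and Igtp, which sit on the cell's own membranes and hold the others in their inactive state, and effectors such as Iigp1 and Ifi47, which load onto the vacuole. Interferon gamma induces both families through the kinases Jak1 and Jak2 and the transcription factor Irf1. Their promoters hold interferon-responsive sequences called GAS and ISRE elements, and Irf1 and complexes that hold Stat2 and Irf9 bind ISRE elements. In T cells, GBPs and IRGs are known as basal and interferon-induced transcripts, and Irgm1 is known to support survival of activated T cells.

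The interferon elements are shown first because they are what most members share in sequence. RefSeq promoter windows on GRCm38.p6, from 250 bases before the transcription start to 50 after it, were matched by symbol for 8 of the 10 members, all but Gbp4 and Iigp1. Both strands were searched for an ISRE core (GAAA, any 2 bases, GAAA), for a GAS element, TTCNNNGAA, and for an Ets motif, CCGGAAGT, counting overlapping matches. The ISRE core lay in the window of 7 of the 8 members, all but Ifi47, against 3.44% of all 32851 promoters. GAS lay in 3 members (Gbp7, Igtp and Irgm2), against 8.30% of all promoters, and the Ets motif in 0 of 8, against 3.89% of all promoters. A match describes letters in a window and shows no binding. With 8 windows and only this Ets motif searched, the lack of a match does not show that Ets sites are absent.

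The printed stretches run from 15 bases before the first match to 15 after the last, or to the start, in the sense of the gene. Capitals mark the ISRE and GAS matches. The IRG regulators Igtp (chr11:58199496-58199546, plus strand), Irgm2 (chr11:58214887-58214937, plus strand) and Irgm1 (chr11:48871421-48871465, minus strand) come first, with Tgtp2 (chr11:49064258-49064308, minus strand), an effector IRG gene outside the 10, for comparison.
Igtp: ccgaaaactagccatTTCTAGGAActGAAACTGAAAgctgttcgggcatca
Irgm2: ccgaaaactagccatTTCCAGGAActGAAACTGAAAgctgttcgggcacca
Tgtp2: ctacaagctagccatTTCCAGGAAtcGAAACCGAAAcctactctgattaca
Irgm1: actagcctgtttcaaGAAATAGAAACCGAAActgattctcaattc
The GBP promoters, all on the plus strand of chromosome 3, are those of Gbp2 (chr3:142620589-142620628), Gbp2b (chr3:142594695-142594734), Gbp3 (chr3:142559984-142560029) and Gbp7 (chr3:142530215-142530307).
Gbp2: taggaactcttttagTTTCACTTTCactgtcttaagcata
Gbp2b: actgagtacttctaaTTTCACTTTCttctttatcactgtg
Gbp3: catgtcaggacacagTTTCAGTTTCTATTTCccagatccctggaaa
Gbp7: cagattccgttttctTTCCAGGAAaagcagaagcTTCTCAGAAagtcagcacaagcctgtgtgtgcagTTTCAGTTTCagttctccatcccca
In Igtp and Irgm2 a GAS element is followed, after 2 bases, by an ISRE core. The same unit of 21 bases, GAS, any 2 bases and the ISRE core, was in 5 of 32851 promoters, and all 5 belonged to IRG genes (Igtp, Irgm2, Tgtp1, Tgtp2 and Gm12185). The spacing searched was the one these members hold, so their own matches follow from the choice. The Igtp and Irgm2 stretches are nearly identical, and Tgtp1 and Tgtp2 are near copies, so the 5 are not separate cases. In the 4 GBPs the ISRE core lay on the strand opposite to the gene (a second window of Gbp3 held no match), and in the 3 IRG regulators it lay on the strand of the gene. Gbp3 and Irgm1 each held a pair of ISRE matches that overlapped, 6 bases apart.

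**Figure D1:**
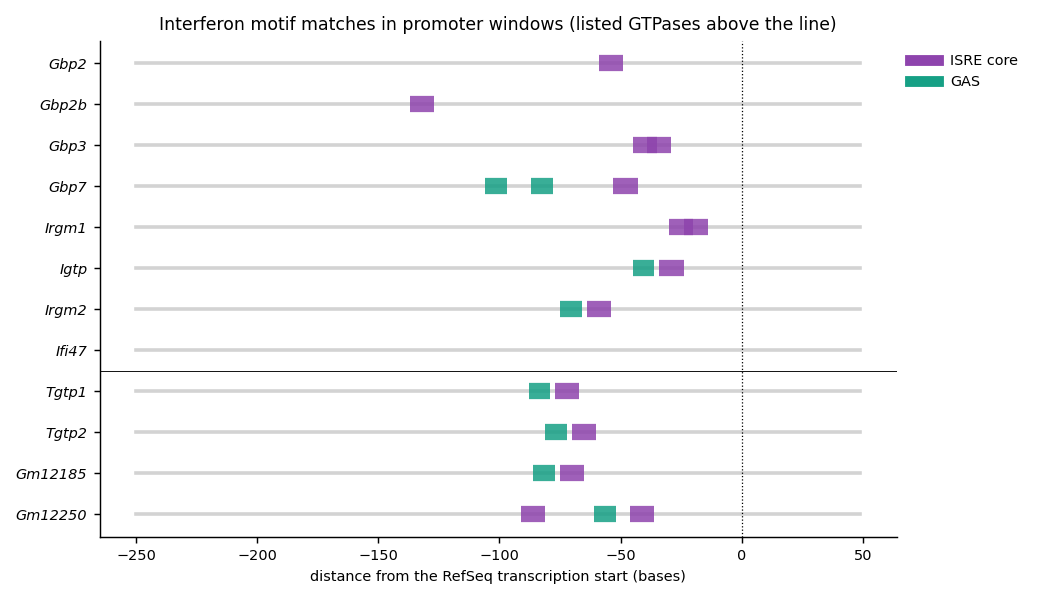
Positions of the ISRE core and GAS matches (coloured bars) in promoter windows of 8 listed GTPases, above the line, and of 4 related IRG genes, below it; the x axis is the distance in bases from the RefSeq transcription start. The GAS and ISRE bars stand 2 bases apart in Igtp, Irgm2, Tgtp1, Tgtp2 and Gm12185, and Ifi47 has no match.

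Normalised read counts summed to between 4996523 and 5219483 per library, and the original read depth is unknown. Ets1 was at 462, 596 and 441 in cKOHet libraries and at 7391, 6255 and 7787 in controls, so the labels and the targeted gene went together. Tbx21 was at 2206 ± 98.5 in cKOHet libraries and 2568 ± 174 in controls (SD, n = 3 each; limma adjusted p = 0.196). The iNKT1 markers Cd3e, Trac, Zbtb16, Tbx21, Il2rb, Klrb1c, Cxcr3, Cxcr6 and Ifng were all present in every library. They summed to 37600 to 43400 in cKOHet libraries and 44300 to 48700 in controls, without overlap and lower in cKOHet libraries, as the GTPases were. In normalised counts the largest difference among them was that of Il2rb. It was at 10596, 12186 and 14344 in cKOHet libraries and at 19870, 20474 and 20437 in controls. On the log2 scale the largest was that of Ifng, which was higher in cKOHet libraries (log2 2.14). Of these markers Il2rb and Cxcr3 were called lower and Zbtb16 and Ifng higher, while Cd3e, Trac, Tbx21, Klrb1c and Cxcr6 were not called. The B cell and neutrophil markers were not in the table. The 6 markers of macrophages and Kupffer cells, cells that express these GTPases, summed to between 120 and 148 in cKOHet libraries and between 24.8 and 73.5 in controls. Replicate 4 of each group had almost no Xist RNA (0.0816 in the cKOHet library and 1.17 in the control), while the other 4 libraries were at 4340 or more.

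All 10 GTPases had lower mean transcript levels in cKOHet cells than in control cells, and 8 of them passed the test, with none higher. The 8 were Gbp2, Gbp2b, Gbp3, Gbp4, Gbp7, Igtp, Iigp1 and Ifi47, while Irgm1 and Irgm2 did not pass. Log2 fold changes, on the log2(normalised count + 1) scale, ran from -1.44 to -0.33 with a median of -0.46, against a median of 0.01 over all 11226 genes tested. Over all those genes, 9.97% were called lower and 11.5% higher (limma, Benjamini-Hochberg adjusted p under 0.05). All 3 cKOHet libraries lay below all 3 controls for 9 of the 10, the exception being Irgm2, against 16.7% of all genes. None lay above all controls, against 19.1% of all genes. Since the 10 were chosen with earlier results of these data known, the shares of all genes are given for scale alone. Together the 10 genes summed to 8407, 8256 and 9313 normalised counts in cKOHet libraries and to 13950, 12960 and 12070 in controls. The mean sum in cKOHet libraries was 0.666 of that in controls. In bulk RNA, fewer cells that express a gene and less RNA per cell cannot be told apart. Leaving out a library changed the count of 8 by more than 1.5 times in 3 cases: 4 were called without control replicate 1, 5 without control replicate 2 and 5 without cKOHet replicate 2. The macrophage markers Clec4f, Cd5l and Csf1r were called higher in cKOHet libraries, where the GTPases were lower, and the dendritic cell markers Itgax and Cd74 were called higher too (the 3 in the table of 5 listed summed to 198 to 339 in cKOHet libraries and 84.6 to 92.0 in controls). Of 4 endothelial markers, 2 were in the table, summing to 48.9 to 52.4 in cKOHet libraries and 172 to 224 in controls. Nearly all of this was Pecam1 (51.4, 42.5 and 36.5 in cKOHet libraries, 220, 197 and 172 in controls), called lower, as the GTPases were. The other, Stab2, was at 1.01, 6.54 and 12.4 in cKOHet libraries and at 3.67, 1.1 and 0.04 in controls, too low to be tested. The 5 hepatocyte markers summed to 253 to 618 in cKOHet libraries and 186 to 384 in controls. The part of these cells in the result was not tested.

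**Figure D2:**
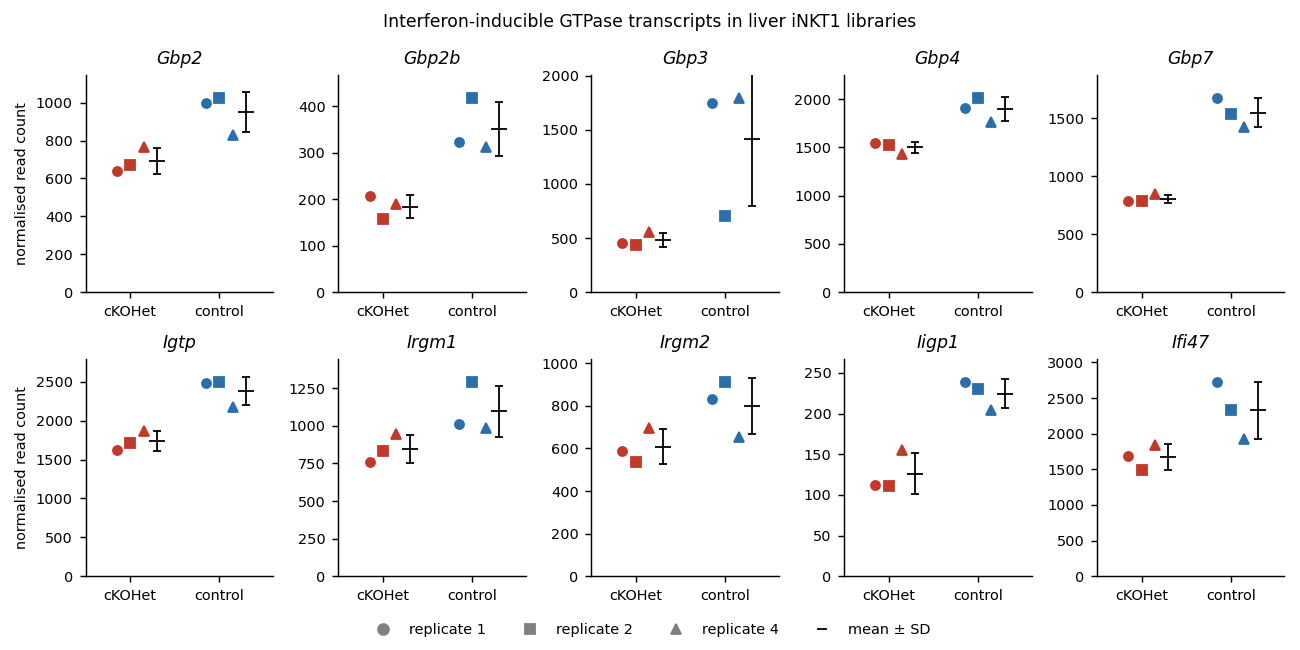
Normalised read counts of the 10 GTPase genes in each library (y axes start at 0), GBPs in the upper row and IRGs in the lower; symbols mark replicates 1, 2 and 4, and the bar is the mean ± SD of 3 libraries. The cKOHet points lie below the control points for every gene except Irgm2, and 1 Gbp3 control, at 703, lies well under the other 2.

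Gbp3 had the largest difference among the GBPs. It was at 456, 434 and 553 in cKOHet libraries and at 1751, 703 and 1795 in control libraries. The groups did not overlap, but the controls were uneven, with replicate 2 at 703. Its log2 fold change was -1.44 (SE 0.26, limma adjusted p = 0.000891). It was -1.89 without control replicate 2 and -1.21 without control replicate 4, and it remained called in both fits.

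Gbp7, which lies beside Gbp3, was at 790, 784 and 847 in cKOHet libraries and at 1677, 1540 and 1426 in controls. The levels were even within each group and far apart between them. Its log2 fold change of -0.94 (SE 0.12) had the smallest adjusted p of the members (limma, 2.44e-05). Gbp2b, which encodes the protein long called mouse GBP1, was at 206, 157 and 189 in cKOHet libraries and at 323, 418 and 313 in controls. Its log2 fold change was -0.92 (SE 0.17, limma adjusted p = 0.00111), and no overlap was seen.

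Gbp2, a GBP recruited to the Toxoplasma vacuole, showed a smaller difference. It was at 637, 669 and 767 in cKOHet libraries and at 998, 1025 and 827 in controls, without overlap. The difference was -0.46 on the log2 scale (SE 0.13), with a limma adjusted p of 0.0189. The call was lost without cKOHet replicate 1 or 2 or control replicate 1 or 2 (adjusted p 0.0614 to 0.0857). Gbp4 was at 1544, 1529 and 1437 in cKOHet libraries and at 1912, 2014 and 1764 in controls. This was the smallest fold change of the 10, -0.33 on the log2 scale (SE 0.11, limma adjusted p = 0.0436). Gbp4 was called in 11 of 18 alternatives, and lost its call without cKOHet replicate 1, 2 or 4 or control replicate 1 or 2 (adjusted p 0.0616 to 0.156).

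Among the IRG regulators, Igtp, also known as Irgm3, had the highest level per kilobase of exon. It was at 1625, 1710 and 1871 in cKOHet libraries and at 2481, 2497 and 2176 in controls. The groups were separate, the difference was -0.46 on the log2 scale (SE 0.12) with a limma adjusted p of 0.00951, and the call ended without control replicate 1 (adjusted p = 0.0515). Irgm1, the regulator needed for survival of activated T cells, was at 762, 835 and 947 in cKOHet libraries and at 1014, 1292 and 987 in controls. The groups did not overlap, but the log2 fold change of -0.37 (95% interval -0.65 to -0.08) did not pass (limma adjusted p = 0.0679). Irgm2, a regulator found at the Golgi, was at 589, 538 and 698 in cKOHet libraries and at 832, 912 and 655 in controls. Here cKOHet replicate 4 exceeded control replicate 4, and the log2 fold change of -0.39 (95% interval -0.70 to -0.08) did not pass (limma adjusted p = 0.0761). Both crossed the threshold without cKOHet replicate 4 (adjusted p = 0.0434 for Irgm1 and 0.0415 for Irgm2), and Irgm2 did so without control replicate 4 (0.0256).

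Of the effectors, Iigp1 (Irga6), the IRG best known for loading onto the Toxoplasma vacuole, was at 112, 111 and 155 in cKOHet libraries and at 239, 230 and 205 in controls. Its log2 fold change was -0.84 (SE 0.19, limma adjusted p = 0.0051), and it remained called in all 18 alternatives. Ifi47 (Irgd) was at 1686, 1488 and 1847 in cKOHet libraries and at 2726, 2329 and 1925 in controls. The groups came close, since cKOHet replicate 4 and control replicate 4 were nearest to each other. The log2 fold change was -0.47 (SE 0.14, limma adjusted p = 0.0244), and the call ended without cKOHet replicate 2 or control replicate 1 or 2 (adjusted p 0.0698 to 0.144).

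A pattern across libraries ran through both families. Averaged over the 10 genes, log2 levels centred on each gene's mean were -0.37, -0.43 and -0.19 in cKOHet replicates 1, 2 and 4 and 0.42, 0.34 and 0.23 in the controls. This average was highest in replicate 4 among the cKOHet libraries and lowest in replicate 4 among the controls, but not for every member. Of the cKOHet libraries, Gbp4 was lowest in replicate 4 and Gbp2b was highest in replicate 1. Of the controls, Gbp3 was highest in replicate 4 and lowest in replicate 2. The replicate 4 libraries are those with little Xist RNA. In the other 4 libraries alone, 2 per group and chosen after seeing the data, 9 of the 10 were called lower, all but Gbp4. In that fit 1674 of 11226 genes were called in either direction. Gbp3 departed most from the common profile (root mean square distance 0.602 on the log2 scale), and Igtp least (0.112).

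Per kilobase of exon the 10 genes spanned a wide range of levels. In cKOHet libraries Igtp was highest at 858 ± 61.9 normalised counts per kb, followed by Ifi47 at 677 ± 72.7, Gbp2 at 275 ± 27.0 and Gbp4 at 201 ± 7.72. Irgm2, Gbp3, Irgm1 and Gbp7 followed at 144 to 165 per kb, with ranges that overlapped between neighbours, and Gbp2b (65.2) and Iigp1 (21.6) came last. In control libraries Igtp, at 1179 ± 89.2 per kb, and Ifi47, at 941 ± 162, were again on top, with overlapping ranges. Gbp3 came next in controls at 434 ± 189 per kb, but its range there, 215.2 to 549.7 per kb, overlapped those of Gbp2, Gbp7, Gbp4, Irgm2 and Irgm1, so its place among them is not settled. In cKOHet libraries it was at 147 ± 19.4 per kb, below Gbp2 and Gbp4 without overlap. Gbp2b and Iigp1 were lowest in both groups, without overlap with their neighbours.

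Reads from one copy can be lost or assigned to another where genes are alike, so the transcripts in GENCODE M21 were compared. Between the longest open reading frames, Gbp2 and Gbp2b were 82.5% identical in nucleotides, Gbp3 and Gbp7 were 78.5% and Igtp and Irgm2 were 73.0%. Stretches of 50 bases that also occur in another gene made up 2.03% of the Gbp2 transcripts, 1.84% of Gbp2b, 3.75% of Gbp3, 7.78% of Gbp4 and 12.7% of Gbp7. Most of the Gbp7 share was with Gm43802, a processed pseudogene that overlaps its exons (10.5%). Among the IRGs the share was 11.8% for Igtp, 7.83% for Irgm2, 4.81% for Ifi47, 1.69% for Iigp1 and 0.379% for Irgm1. Igtp and Irgm2 share 162 bases of exon on the same strand. Summed, this pair was at 2214, 2248 and 2570 in cKOHet libraries and at 3312, 3409 and 2832 in controls, again without overlap. Gbp3 and Gbp7 summed to 1246, 1218 and 1400 in cKOHet libraries and to 3428, 2243 and 3221 in controls.

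Of the 10 genes, 9 lie in the 4 clusters described here, and fold changes differed along the clusters. Iigp1 lies on chromosome 18, near the IRG genes Gm4951, Gm4841 and F830016B08Rik, which were not in the table. On mm10 chromosome 3, Gbp7 (142530342 to 142550149), Gbp3 (142560026 to 142573209), Gbp2b (142594847 to 142619179) and Gbp2 (142620602 to 142638008) follow each other, and all 4 were called lower. The nearest tested gene on one side, Pdlim5, an actin-associated scaffold, was called higher (440 and 257, means in cKOHet and control libraries), and Kyat3 on the other side was at 12.6 in cKOHet and 5.29 in control libraries and was not called. On chromosome 5, Gbp4 (105115767 to 105139586) was the only called family member. Its neighbour Gbp9 was at 1168 ± 96.9 in cKOHet libraries and 1411 ± 159 in controls (log2 -0.27, limma adjusted p = 0.141). Gbp8 was at 905 ± 36.2 in cKOHet libraries and 734 ± 163 in controls (log2 0.33, limma adjusted p = 0.152). Gbp11, annotated as a polymorphic pseudogene, was at 39.2, 14.9 and 8.36 in cKOHet libraries and at 2.65, 12.7 and 0.07 in controls. It was not called (log2 2.27, limma adjusted p = 0.0703), but was without control replicate 2 (log2 3.20, adjusted p = 0.014), and its value was 1.36 without control replicate 4. Gbp8 and Gbp11 share 18.1% and 19.2% of their 50-base stretches with other genes. Of the genes beside this cluster, Abcg3, a transporter of the ABC family, was called lower (298 and 499, means in cKOHet and control libraries), and Lrrc8b was not called. Gm43302, a gene model that shares 1726 bases of exon with Gbp6 and 1792 with Gbp10, was at 1483 in cKOHet and 1519 in control libraries and was not called (log2 -0.01). Gbp6 and Gbp10, on chromosome 5, and Gbp5, beside Gbp7 on chromosome 3, were not in the table.

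**Figure D3:**
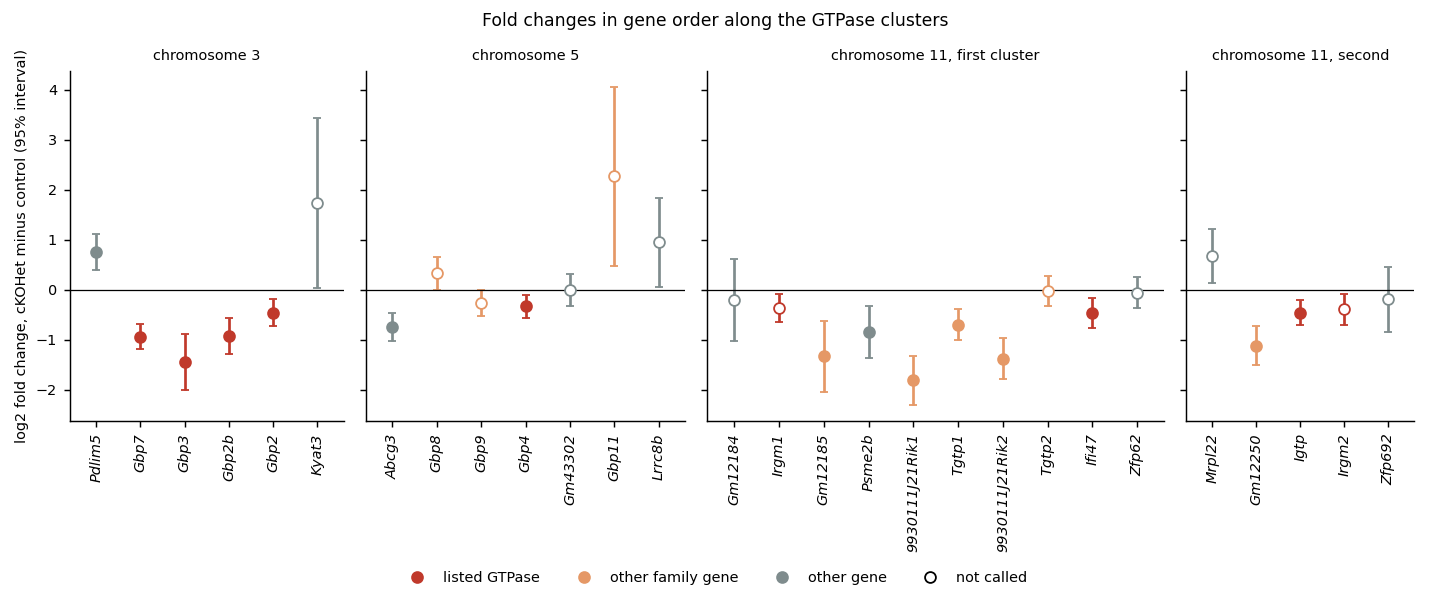
Log2 fold change of cKOHet over control libraries (y axis, with 95% intervals, n = 3 each) for GTPase genes and the nearest tested genes on each side, in their order along 4 clusters; red marks the listed GTPases, orange other family genes, grey other genes, and open circles those not called. All 4 tested GTPase genes of the chromosome 3 cluster lie below 0, from -1.44 to -0.46, while on chromosome 5 Gbp4 is the only GTPase gene called.

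The chromosome 11 genes extended the pattern to IRGs outside the 10. Irgm1 (48861968 to 48871683) and Ifi47 (49076587 to 49096974) flank a cluster in which 9930111J21Rik1 and 9930111J21Rik2 fell most. The first was at 59.4, 50.8 and 83.3 in cKOHet libraries and at 233, 241 and 201 in controls (log2 -1.81, limma adjusted p = 3.23e-05), and the second was at 193, 144 and 256 in cKOHet libraries and at 540, 536 and 435 in controls (log2 -1.38). Because 83.2% and 59.8% of their 50-base stretches occur in other genes, mainly in each other, the split is uncertain, and their sum was at 262 ± 73.0 in cKOHet libraries and 729 ± 80.2 in controls. Tgtp1 was called lower (281 ± 31.5 and 457 ± 51.0, cKOHet and control) while Tgtp2, its near copy, was at 633 ± 95.1 in cKOHet libraries and 644 ± 82.0 in controls (limma adjusted p = 0.927). Of the stretches of Tgtp1, 79.4% occur in Tgtp2, and 85.8% the other way, so the split between them is uncertain, and their sum was at 914 ± 84.0 in cKOHet libraries and 1101 ± 116 in controls. Gm12185 was at 21.9 ± 3.01 in cKOHet libraries and 56.6 ± 9.49 in controls, and its call ended without control replicate 1 (limma adjusted p = 0.0542). Psme2b, inside the cluster and no GTPase, was also called lower (78.2 and 143, means in cKOHet and control libraries). The outer neighbours Gm12184 and Zfp62 were not called. In the second cluster Igtp (58199556 to 58207591) and Irgm2 (58199618 to 58222782) lie beside Gm12250. GENCODE M21 types Gm12250 as a processed pseudogene, but RefSeq gives it a promoter entry, and its type was not examined here. Gm12250 was called lower at 256 ± 49.8 in cKOHet libraries and 561 ± 117 in controls (log2 -1.12, limma adjusted p = 0.000347). The outer neighbours Mrpl22 and Zfp692 were not called.

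Further IRG genes, very large Gvin GTPases and Mx GTPases were listed together. Of 13 tested genes of the other IRG, Gvin and Mx list, 7 were called lower and 2 higher (all genes: 9.97% and 11.5%). Their median log2 fold change was -0.96. Mx1, a dynamin-like antiviral GTPase, rose to 440 ± 58.1 in cKOHet libraries, against 268 ± 66.3 in controls (log2 0.74, limma adjusted p = 0.00853). Irgq, an IRG relative not known as interferon-inducible, rose to 204 ± 24.9 in cKOHet libraries, against 108 ± 14.2 in controls (log2 0.91, limma adjusted p = 0.0033). Gvin1 and Gm4070, very large GTPases whose reads can hardly be separated (98.3% of the Gvin1 stretches occur in Gm4070), summed to 225, 193 and 320 in cKOHet libraries and to 852, 619 and 372 in controls. Apart, Gm4070 was called (log2 -1.71), and Gvin1 was called (log2 -0.96) but lost its call without cKOHet replicate 1 or 2 or control replicate 1 or 2 (adjusted p 0.0619 to 0.111). Mx2 (17.8 ± 10.9 and 38.5 ± 18.4, cKOHet and control), Gm8979 (15.6 ± 3.34 and 8.19 ± 5.35) and Gm8995 (3360 ± 364 and 3658 ± 614) were not called.

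The cytokine that induces these GTPases and its receptor went the other way. Ifng was at 1686, 2157 and 1566 in cKOHet libraries and at 473, 401 and 351 in controls (log2 2.14, SE 0.15, limma adjusted p = 7.28e-08). Ifngr1, the ligand-binding receptor chain, was at 9938, 7955 and 9453 in cKOHet libraries and at 2406, 2850 and 2373 in controls (log2 1.84, SE 0.13, limma adjusted p = 9.91e-08). Several genes further down the pathway were lower. Irf1, the factor that acts on ISRE elements, was at 1366, 1295 and 1288 in cKOHet libraries and at 1953, 1658 and 1662 in controls (log2 -0.41, limma adjusted p = 0.0168). Jak1 was called lower (4334 ± 537 and 5830 ± 665, cKOHet and control; log2 -0.43), and so was Irf8, an interferon gamma-induced factor (170 ± 47.7 and 349 ± 88.0; log2 -1.04). Over the 10 tested genes of interferon gamma signalling, 2 rose and 4 fell (all genes: 11.5% and 9.97%), with a median of -0.19.
The count lower was 2 without cKOHet replicate 1, control replicate 1 or control replicate 4. Irf1 lost its call without cKOHet replicate 2 or control replicate 1 (limma adjusted p = 0.0544 and 0.111). Jak1 lost it without cKOHet replicate 1 or 2 or control replicate 1 or 4 (limma adjusted p 0.0884 to 0.128).

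**Figure D4:**
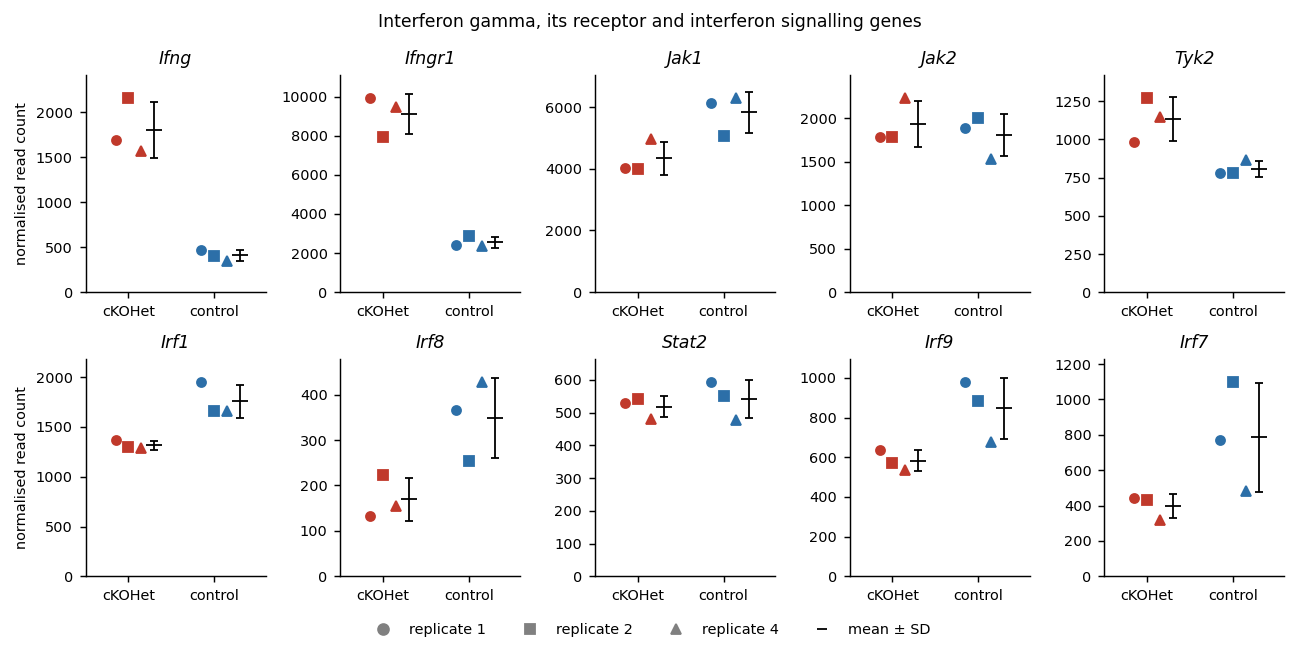
Normalised read counts in each library (y axes start at 0) of Ifng, its receptor chain Ifngr1 and 8 signalling genes; symbols mark replicates, and the bar is the mean ± SD of 3 libraries. Ifng and Ifngr1 are higher in all 3 cKOHet libraries, as is Tyk2, while Jak1, Irf1, Irf8, Irf9 and Irf7 are lower, and Jak2 and Stat2 overlap.

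The type I interferon pathway acts on the same ISRE elements. Of 9 of its genes tested, 4 fell and 1 rose, with a median log2 fold change of -0.49. Over all genes 9.97% were called lower and 11.5% higher, so the share that rose is near that of all genes. Usp18, a brake on type I receptor signalling, was at 42.5 ± 20.6 in cKOHet libraries and 144 ± 55.4 in controls, and Irf7 was at 398 ± 68.4 in cKOHet libraries and 785 ± 308 in controls. Irf9, the DNA-binding subunit of the ISRE complex, was at 639, 573 and 537 in cKOHet libraries and at 980, 883 and 677 in controls (log2 -0.52, limma adjusted p = 0.0171). Stat2, its partner, was at 518 ± 32.8 in cKOHet libraries and 541 ± 57.9 in controls and was not called (limma adjusted p = 0.816). Tyk2, a kinase of the receptor, rose (1134 ± 145 and 809 ± 51.2, cKOHet and control). Without cKOHet replicate 4 the count lower was 1, and without cKOHet replicate 2 or control replicate 1 none was higher. Irf9 lost its call without cKOHet replicate 2 or 4 or control replicate 1 or 2 (limma adjusted p 0.0511 to 0.101), Irf7 without cKOHet replicate 4 (0.0588), and Tyk2 without cKOHet replicate 2 or control replicate 1 (0.0668 and 0.0512).

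The other interferon targets are given for comparison. Of 23 antiviral interferon-stimulated genes, 18 fell and none rose (all genes: 9.97% and 11.5%), with a median log2 fold change of -0.87. Without control replicate 2, 10 fell and Oasl2 rose (limma adjusted p = 0.0189). Ifi44 was at 2.03, 0.79 and 1.12 in cKOHet libraries and at 92.5, 171 and 60.2 in controls, Rtp4 was at 131 ± 40.4 in cKOHet libraries and 488 ± 121 in controls, and Oas3, a sensor of double-stranded RNA, was at 407 ± 70.6 in cKOHet libraries and 1071 ± 357 in controls. Of 12 antigen presentation genes induced by interferon gamma, 3 fell and none rose (all genes: 9.97% and 11.5%), with a median of -0.29. These were the immunoproteasome subunits Psmb10 (714 ± 85.9 and 1091 ± 92.6, cKOHet and control) and Psmb8 (2452 ± 309 and 3288 ± 225) and the proteasome activator Psme1 (1608 ± 186 and 2112 ± 118). Psmb8 lost its call without cKOHet replicate 4 or control replicate 1 or 2, and Psme1 without cKOHet replicate 2 or 4 or control replicate 2 or 4 (limma adjusted p 0.0531 to 0.098). The count lower was 1 without cKOHet replicate 4 or control replicate 2, and in the fit without control replicate 2 Nlrc5, a transactivator of class I genes, was called higher (log2 0.51, limma adjusted p = 0.0311).

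Genes that work with the GTPases are given next. Of 13 genes for autophagy conjugation, which positions IRGs and GBPs on vacuoles, and for prenylation, which gives some GBPs their anchor, 2 rose and none fell, with a median of 0.17, a share called higher near the 11.5% of all genes. The count higher was 1 without cKOHet replicate 2, and 3 without cKOHet replicate 1. Gabarap, of the Atg8 family, was at 1466 ± 76.4 in cKOHet libraries and 1067 ± 65.5 in controls (limma adjusted p = 0.00804). Fnta, the alpha subunit of farnesyl and geranylgeranyl transferases, was at 280 ± 44.9 in cKOHet libraries and 169 ± 37.1 in controls, and lost its call without cKOHet replicate 2 or 4 or control replicate 4 (limma adjusted p 0.0534 to 0.07). Of 6 tested inflammasome genes, which GBPs are known to help activate, 3 fell and none rose (all genes: 9.97% and 11.5%). Aim2, the sensor of cytosolic DNA, was at 99.4 ± 4.66 in cKOHet libraries and 219 ± 39.2 in controls (limma adjusted p = 0.000648). Casp4, which encodes caspase-11, was at 5.04, 5.48 and 2.14 in cKOHet libraries and at 13.9, 27.2 and 14.8 in controls, and Nlrp1b was at 12.8 ± 1.30 and 34.3 ± 7.18 (cKOHet and control). Casp4 lost its call without cKOHet replicate 4 or control replicate 2 or 4, and Nlrp1b without cKOHet replicate 2 or 4 or control replicate 1 or 4 (limma adjusted p 0.0538 to 0.129). Without cKOHet replicate 4 or control replicate 4, 1 inflammasome gene was called lower.

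**Figure D5:**
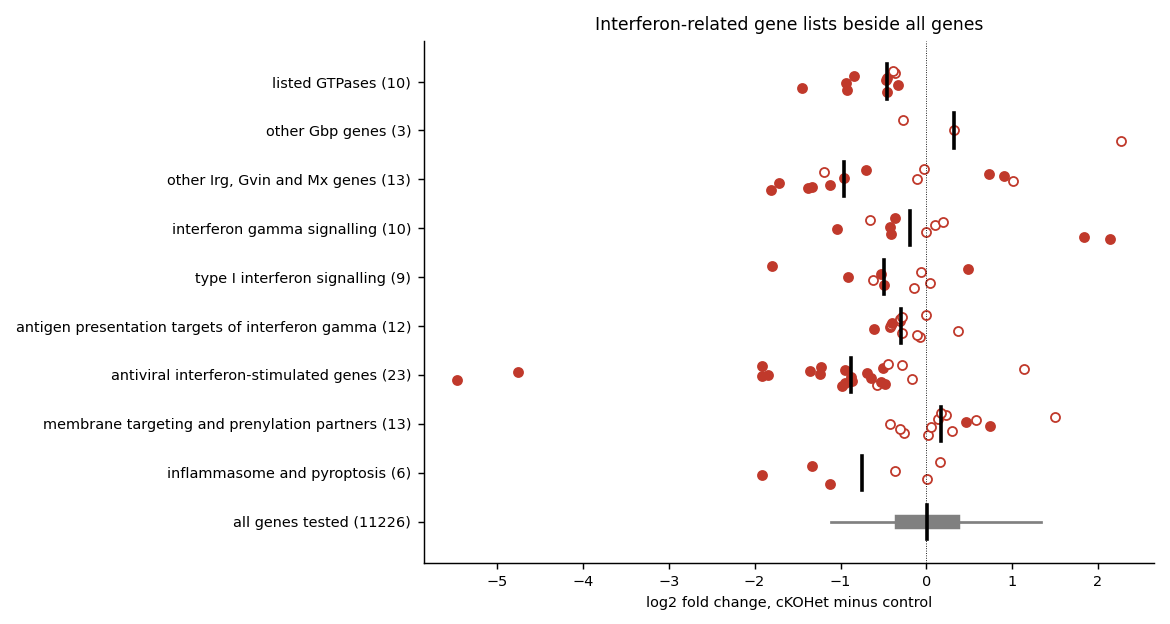
Log2 fold change of cKOHet over control libraries (x axis) for each tested gene of 9 interferon-related lists, with the number tested in brackets; filled circles were called, open circles were not, and the black line is the median. For all 11226 genes the thick bar spans the 25th to 75th percentile, the thin line the 5th to 95th, and the median is 0.01, against -0.46 for the listed GTPases.

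The promoter letters and the fold changes were also set side by side across all tested genes with a promoter entry. Of 321 genes with an ISRE core in the window, 21.8% were called lower and 11.2% higher, against 9.64% and 11.9% of 7948 genes without it. With every gene of the interferon lists left out, 294 genes with an ISRE core remained, of which 17.3% were called lower and 12.2% higher. For GAS, 75 of 695 genes with it and 761 of 7574 without it were called lower, and 80 with it and 901 without it were called higher. Of 879 genes with the Ets motif, 4.32% were called lower and 5.92% higher, against 10.8% and 12.6% of 7390 genes without it, so that both shares were smaller with the motif. Among the 8 members with a window, Ifi47, the member without an ISRE match, had a log2 fold change of -0.47, within the range of the other 7 (-1.44 to -0.37). Of the 5 genes with the GAS and ISRE unit, 3 were called lower (Igtp, Tgtp1 and Gm12185) and none higher (all genes: 9.97% and 11.5%). Irgm2 (log2 -0.388, limma adjusted p = 0.0761) and Tgtp2 (log2 -0.027, limma adjusted p = 0.927) hold the unit too and were not called. The split of reads between Tgtp1 and Tgtp2 is uncertain, so a link between the unit and the fold changes was not tested.

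Outside the lists, the 5 genes whose profile over the 6 libraries came closest to the mean of the members were Cd27, Sp100, Gm13611, Prmt5 and Plcg1. Their root mean square distances were 0.0198 to 0.0702 on the log2 scale. The mean profile holds the difference between the groups, so lower levels of these genes in cKOHet libraries follow from the choice. Cd27, a costimulatory receptor, was at 558, 532 and 618 in cKOHet libraries and at 934, 925 and 833 in controls. Sp100, an interferon-inducible nuclear body protein, was at 2647, 2476 and 2930 in cKOHet libraries and at 4429, 4363 and 3917 in controls. Prmt5, an arginine methyltransferase, and Plcg1, a phospholipase of T cell receptor signalling, were also called lower (log2 -0.55 for each), while Gm13611 was not called (limma adjusted p = 0.207).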

How the data were processed

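RNA from sorted liver iNKT1 cells was isolated with RNeasy mini kits and made into libraries with the Ovation Ultralow system, per the labels' protocols. The submitters' processing notes name Trimmomatic 0.33, STAR, HTSeq 0.6.1, DESeq2 and the mm10 build; the sources used here give no settings, annotation or strand. Values are a normalised signal, which the authors deposited as normalised HTSeq counts. Its values are not whole, the offsets of low values differ between genes and libraries, and whole reads were not recovered, so a count test was not run. The smallest maximum of any gene is 5.22, so low genes had been removed. The column codes of replicate 1 join 2 names, which the labels do not explain. If these libraries were pooled, this is not stated.

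GENCODE M21 named 12864 of 12942 identifiers. Values were taken as log2(value + 1), and genes at 10 or more in at least 3 of 6 libraries were fitted with limma 3.58.1 in R 4.3.3 (mean-variance trend). p-values were adjusted by Benjamini-Hochberg over 11226 genes, and calls were made under 0.05. Since nothing names separate mice, p-values cover library-to-library spread alone, which may be technical. The procedure was tested on simulated whole counts with the same spread setting for every gene. The deposited values are not whole and carry offsets, so that test does not show how often calls here are wrong. The pseudocount understates changes of low genes. The members and lists were chosen with earlier results of these data known. Named genes were all 10 members, all family genes in the table, up to 3 called genes per further list and direction with the smallest adjusted p, Irf1, Ifng, Ifngr1, Irf9 and Stat2 whatever their values, Ets1 and Tbx21, and the 5 nearest profiles. Named outside this rule, after values were seen, were Jak2, Oasl2, Nlrc5, Psme2b, Gm43302 and the genes beside the clusters. A further signalling gene is not reported here.

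Read sharing was measured as stretches of 50 bases of GENCODE M21 transcripts that occur in another gene on either strand. Levels per kb used the union of exons. Open reading frames were aligned globally with Biopython 1.88. Promoter sequences are from RefSeq (GRCm38.p6).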

Additional observations from a re-analysis of the deposited data

How the results depend on the processing

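The 10 GTPases kept a negative fold change in all 18 alternatives. The count called lower, 8, was 8 to 10 under other pseudocounts, filters, scalings, robust moderation, library weights, a term for libraries with low Xist and the libraries with high Xist alone (the last chosen after seeing the data), but 4 without the mean-variance trend, where Gbp2, Gbp4, Igtp and Ifi47 lost their calls; the cause was not tested. It was 4 to 9 when a library was left out. None was called higher in any of these fits. Gbp2b, Gbp3, Gbp7 and Iigp1 were called in all 18. Over all genes, 1670 to 2492 were called, against 2407 as reported, and 1883 to 2207 with a library left out. Replicate numbers are shared between the groups, but same-numbered libraries deviated together only weakly (correlations 0.055 to 0.092 across genes), although all 6 libraries correlated best with their own number; with the number as a replicate block, 8 members and 2412 genes were called. Scaling moved the median of all genes by at most 0.04 on the log2 scale. Original depth is unknown, so no counting intervals were given.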
